A study of Homo sapiens with 6 samples.

Results

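The AP-1 transcription factor family was examined in RNA sequencing of DCIS.COM cells, an established human breast cell line of the basal type used as a model of ductal carcinoma in situ (DCIS). The genes were taken by name: the FOS genes FOS, FOSB, FOSL1 and FOSL2, the JUN genes JUN, JUNB and JUND, and the related ATF3, BATF3 and MAFF, which are 10 of the 58676 genes in the table. The 3 NS control samples came from cells transduced with a lentiviral PLKO.1 vector carrying a non-silencing shRNA, and the 3 BCL9 KD samples from cells transduced with the same vector carrying an shRNA to BCL9, a coactivator that links β-catenin to the transcription machinery. Each sample was a separate flask, all cells were grown in DMEM/F12 with 5% horse serum, and the knockdown rests on a single BCL9 shRNA sequence. No separate transduction for each replicate is described, so the SDs and p-values below measure the spread between flasks. Other differences between the transduced cell populations cannot be told apart from the effect of the shRNA. Values are FPKM, the reads on a gene scaled to the length of the gene and to the depth of the sample, so that levels can be compared between genes.

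AP-1 is a dimer of basic leucine zipper proteins that binds the TPA response element (TRE) and, more weakly, the cyclic AMP response element (CRE). FOS proteins do not pair with each other and pair mainly with JUN proteins, whereas JUN proteins also pair among themselves and with ATF proteins. FOS, FOSB, JUN, JUNB and ATF3 are immediate-early genes, switched on within minutes of growth factor, serum or stress signals, and in carcinoma cells the FOSL1 and FOSL2 products, FRA-1 and FRA-2, are often the lasting FOS proteins.

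Within this family, FOS and MAFF were higher and FOSL2 was lower in BCL9 KD compared to NS control. FOS had a mean of 1.82 FPKM ± 0.341 (SD, n = 3) in NS control and of 3.40 FPKM ± 0.0403 (SD, n = 3) in BCL9 KD cells, where in bulk RNA more cells that express a gene and more RNA per cell cannot be told apart. FOSL2, the most abundant of the 10 in both groups, went from 62.4 FPKM ± 4.17 to 45.2 FPKM ± 2.17 (SD, n = 3 each). MAFF, which encodes a small MAF protein without an activation domain, went from 7.58 FPKM ± 0.409 to 10.1 FPKM ± 0.0876 (SD, n = 3 each). Of the 10 genes, 8 had a mean of at least 0.5 FPKM over the 6 samples and were tested, with limma on log2(FPKM + 0.5) and Benjamini-Hochberg adjustment over all 13745 genes that passed this filter. At an adjusted p-value under 0.05, 3 of the 8 passed the test, beside 5.87% of all genes tested. The 2 that were higher stand beside 2.96% of all genes, and the 1 that was lower beside 2.91%. Since the genes were picked with earlier results of these data known, these counts are a description. The median log2 fold change was 0.05 over the 8 genes and 0.04 over all genes tested.

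**Figure D1:**
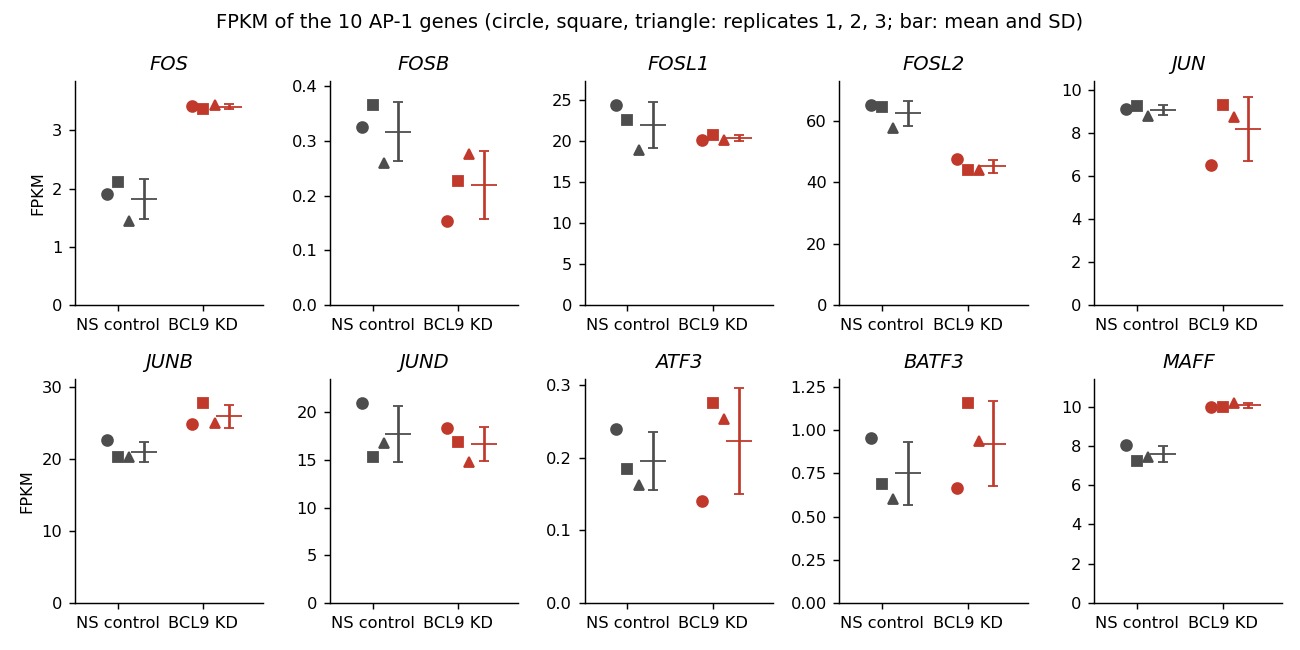
FPKM of the 10 AP-1 genes on linear axes that start at 0, a panel per gene, with NS control samples in grey and BCL9 KD samples in red. Circles, squares and triangles are replicates 1, 2 and 3, and the bars give the mean and SD. The groups do not overlap for FOS, FOSL2, JUNB and MAFF.

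The GC content of their transcripts ran from 51.0% in ATF3 to 69.9% in JUND, and JUNB, JUND and MAFF lay in the 10% of tested genes richest in GC, at 61.6% or more. JUN, JUNB and JUND each have 1 exon in the annotated transcript, and FOS, FOSB, FOSL1, FOSL2 and ATF3 have 4. FOS lies at chr14:75278774-75282230 on the plus strand, FOSL2 at chr2:28392448-28417312 on the plus strand and MAFF at chr22:38200767-38216511 on the plus strand (GRCh38). JUN lies at chr1:58780788-58784327 on the minus strand, and JUNB at chr19:12791496-12793315 on the plus strand. ATF3 and BATF3 are neighbours on chromosome 1, 65640 bases apart and on opposite strands.

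RefSeq promoters (GRCh38.p14, 250 bases before to 50 after the annotated start) were at hand for 8 of the 10 genes, all but FOSL1 and BATF3. They were searched on both strands for the TRE (TGACTCA), the CRE (TGACGTCA) and the CArG box, the site of serum response factor (SRF). After the sequences had been seen, the core of the CRE (TGACG), a TRE-like site described for JUN (TGACATCA) and a STAT site (TTCNNNGAA) were added. The core lies within every CRE, so their counts overlap. The 100 bases before the start are shown for the 3 genes that passed the test and for JUN, the main partner of FOS, to compare their AP-1-type sites. Capitals mark the CRE core in FOS and FOSL2, the full CRE in MAFF and the TRE-like site in JUN. The windows are chr14:75278728-75278827 on the plus strand for FOS, chr2:28392758-28392857 on the plus strand for FOSL2, chr22:38201894-38201993 on the plus strand for the first of the 2 MAFF starts, and chr1:58784048-58784147 on the minus strand for JUN.
FOS: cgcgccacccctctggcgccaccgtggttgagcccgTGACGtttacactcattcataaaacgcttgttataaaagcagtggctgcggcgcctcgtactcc
FOSL2: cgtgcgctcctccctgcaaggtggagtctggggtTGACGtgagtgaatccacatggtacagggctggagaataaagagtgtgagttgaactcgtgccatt
MAFF: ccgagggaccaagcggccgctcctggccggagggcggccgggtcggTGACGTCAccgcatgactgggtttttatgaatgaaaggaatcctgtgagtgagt
JUN: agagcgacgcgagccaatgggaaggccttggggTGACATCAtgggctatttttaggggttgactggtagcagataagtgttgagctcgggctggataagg

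Counting back from −1, the base before the start, the CRE core began at base −64 in FOS and at base −66 in FOSL2, and the MAFF CRE began at base −54. Over the full windows, the core was found in 7 of the 8 genes, all but ATF3, and in 24.6% of all 35116 promoters of the same length. The full CRE was found in MAFF and JUND and in 1.85% of all promoters, and the TRE, in FOSL2 only among the 8, in 4.95% of all promoters. FOSL2 holds that TRE from base 5 after the start. JUN and ATF3 hold the TRE-like site, which 2.61% of promoters have, and MAFF holds the STAT site, TTCCGGGAA, from base 3 after its start, with 7.66% of promoters. No CArG box was found in these windows of the 8 genes, beside 1.29% of all promoters. The windows reach only 250 bases before the start, so a CArG box farther away would not have been found. These matches describe letters only, and binding was not measured here.

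The FOS gene encodes the founding FOS protein, a strong activator with a short-lived transcript. FOS was at 1.90, 2.11 and 1.44 FPKM in the NS control samples, given here and after as replicates 1, 2 and 3, and at 3.42, 3.36 and 3.43 FPKM in the BCL9 KD samples. Every BCL9 KD value lay above every NS control value, and the BCL9 KD values were close together. The ratio of the means was 1.87, and the log2 fold change was 0.76 (SE 0.127, 95% CI 0.46 to 1.06, limma adjusted p = 0.029). FOS was a gene of low level in these cells: 36.0% of the genes tested had the same or a lower mean FPKM. It was counted from 140, 138 and 71 reads in NS control and from 196, 293 and 174 reads in BCL9 KD samples, so its values carry more counting error than those of FOSL2.

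FOSB, the closest relative of FOS, was below the filter. Its values were 0.325, 0.365 and 0.260 FPKM in NS control and 0.153, 0.227 and 0.276 FPKM in BCL9 KD samples. The groups overlapped, through BCL9 KD replicate 3, and FOSB did not share the higher level that FOS had in BCL9 KD cells. FOSB had 15 to 41 reads per sample (two-sided exact permutation p = 0.2, where 0.1 is the smallest that 3 against 3 samples allow). FOSB lies within the span of ERCC1 on the other strand, and the strand setting of the read counting is not given in the sources used here, so reads of overlapping genes cannot be told apart.

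FOSL2 encodes FRA-2, a FOS protein with a weaker activation domain. It was at 65.1, 64.5 and 57.6 FPKM in NS control and at 47.7, 44.1 and 43.9 FPKM in BCL9 KD samples. The 3 BCL9 KD values all lay below the 3 NS control values. The mean fell by 27.6%, with a log2 fold change of −0.46 (SE 0.0767, 95% CI −0.64 to −0.28, limma adjusted p = 0.029). At this level, above 95.1% of the genes tested, each sample gave between 4917 and 10589 reads. A pair of noncoding genes overlaps FOSL2, FLJ31356 on the other strand and RP11-373D23.2 within an intron, and neither had more than 10 reads in a sample.

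FOSL1 encodes FRA-1, a FOS protein abundant in many basal-type carcinoma cells. FOSL1 was at 24.4, 22.6 and 18.9 FPKM in NS control and at 20.1, 20.8 and 20.2 FPKM in BCL9 KD samples. The BCL9 KD values all fell inside the range of the NS control values. The log2 fold change of −0.10 did not pass the test (SE 0.101, 95% CI −0.34 to 0.14, limma adjusted p = 0.543). It was −0.02 without NS control replicate 1 and −0.20 without NS control replicate 3, and passed in neither fit.

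FPKM summed over the 4 FOS genes was 91.7, 89.5 and 78.2 in NS control and 71.3, 68.4 and 67.8 in BCL9 KD samples. The sum therefore did not overlap between the groups, and the ratio of the means was 0.80. Its composition moved as well. FOSL2 made up 72.2% ± 1.35 of the sum in NS control and 65.3% ± 1.35 in BCL9 KD samples (SD, n = 3 each), and FOSL1 made up 25.3% ± 1.21 and 29.4% ± 1.18. The FOS share was 2.09% ± 0.255 in NS control and 4.92% ± 0.132 in BCL9 KD samples, and the FOSB share was under 0.5% in every sample. The ratio of FOSL2 FPKM to FOS FPKM was 34.2, 30.6 and 40.0 in NS control samples and 13.9, 13.1 and 12.8 in BCL9 KD samples. FOSL2 was still the most abundant FOS transcript by a wide margin in all 6 samples. These sums and ratios are built from the values above and were given no test of their own.

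**Figure D2:**
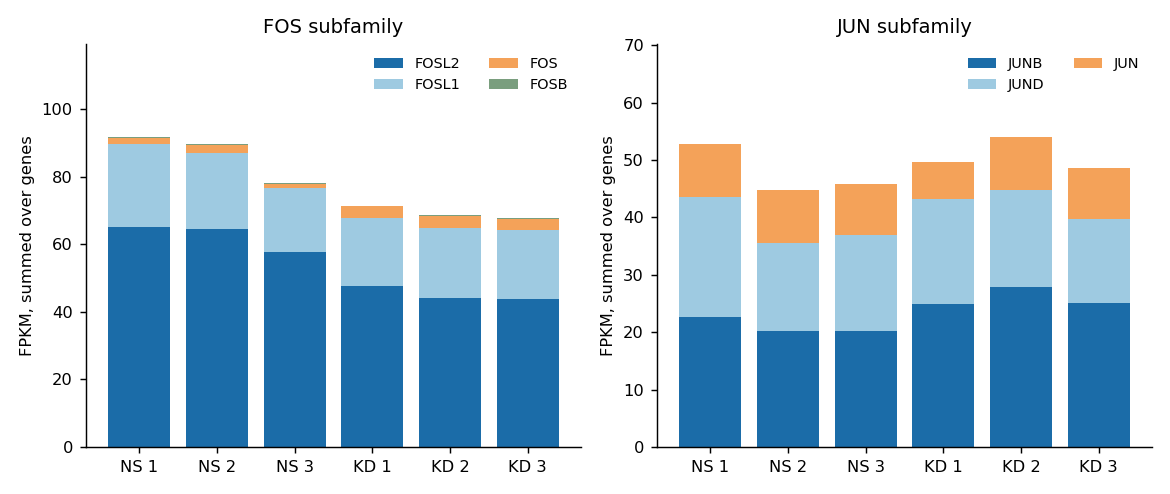
FPKM summed over the FOS genes (left) and the JUN genes (right) in each of the 6 samples, on linear axes that start at 0, with a colour per gene. The FOS sum is 67.8 to 71.3 FPKM in BCL9 KD and 78.2 to 91.7 FPKM in NS control samples, while the ranges of the JUN sum overlap.

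JUNB encodes the JUN protein that is a weak activator and often opposes JUN. JUNB was at 22.6, 20.2 and 20.2 FPKM in NS control and at 24.9, 27.8 and 25.0 FPKM in BCL9 KD samples. All BCL9 KD values were above the NS control values, by 23.4% in the means. The log2 fold change of 0.30 did not pass the test (SE 0.0804, 95% CI 0.11 to 0.49, unadjusted p = 0.00785, limma adjusted p = 0.073). JUNB was thus the fourth of the 8 tested genes whose groups did not overlap, after FOS, FOSL2 and MAFF, beside 34.2% of all genes tested. For each of these 4 the two-sided exact permutation test gave p = 0.1, the smallest that 3 against 3 samples allow. JUNB lies within the span of HOOK2 on the other strand, and HOOK2 was at 8.96 to 9.76 FPKM in NS control and at 9.25 to 9.87 FPKM in BCL9 KD samples.

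JUN, the first JUN gene described, was at 9.12, 9.28 and 8.83 FPKM in NS control and at 6.52, 9.32 and 8.78 FPKM in BCL9 KD samples. Only BCL9 KD replicate 1 lay clearly below the other 5 samples. The log2 fold change was −0.15 (SE 0.131, 95% CI −0.46 to 0.16, limma adjusted p = 0.474), and it was −0.00453 without BCL9 KD replicate 1, −0.25 without BCL9 KD replicate 2 and −0.21 without BCL9 KD replicate 3. JUN did not move with FOS, the partner it is best known for.

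JUND, the JUN gene with the steadiest expression in resting cells, was at 21.0, 15.3 and 16.8 FPKM in NS control and at 18.3, 16.9 and 14.8 FPKM in BCL9 KD samples. Its groups overlapped broadly. The log2 fold change of −0.08 did not pass the test (SE 0.133, 95% CI −0.39 to 0.24, limma adjusted p = 0.728) and was 0.05 without NS control replicate 1, the highest of the 6 samples. JUND transcripts are the richest in GC of the 10 genes.

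FPKM summed over the 3 JUN genes was 52.7, 44.8 and 45.8 in NS control and 49.7, 54.0 and 48.6 in BCL9 KD samples. These ranges overlapped, with a ratio of the means of 1.06. JUNB made up 44.0% ± 1.14 of the sum in NS control and 51.0% ± 0.772 in BCL9 KD samples (SD, n = 3 each). The FOS sum divided by the JUN sum was 1.81 ± 0.160 in NS control and 1.37 ± 0.0877 in BCL9 KD samples (SD, n = 3 each).

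MAFF encodes a small MAF protein, which binds MAF elements alone or with the CNC proteins such as NRF2 and is inducible by stress and cytokines. MAFF was at 8.04, 7.24 and 7.46 FPKM in NS control and at 10.01, 10.02 and 10.16 FPKM in BCL9 KD samples. The BCL9 KD values were nearly equal and all above NS control. The mean was 32.7% higher, and the log2 fold change was 0.39 (SE 0.0711, 95% CI 0.22 to 0.56, limma adjusted p = 0.034). PLA2G6 overlaps MAFF over 4924 bases on the other strand, and its groups did not overlap either, at 1.06, 1.23 and 1.13 FPKM in NS control and at 1.78, 1.47 and 1.60 FPKM in BCL9 KD samples. MAFF had 638 to 1516 reads per sample and PLA2G6 116 to 268, and the part of shared reads in either value was not tested.

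BATF3, a leucine zipper protein known from dendritic cells that lacks an activation domain, was at 0.957, 0.692 and 0.605 FPKM in NS control and at 0.667, 1.16 and 0.941 FPKM in BCL9 KD samples. The groups overlapped. Its log2 fold change of 0.18 did not pass the test (SE 0.193, 95% CI −0.28 to 0.64, limma adjusted p = 0.563), with 25 to 85 reads per sample. It ranged from 0.06 without BCL9 KD replicate 2 to 0.32 without BCL9 KD replicate 1, was 0.30 without NS control replicate 1 and 0.10 without NS control replicate 3, and passed in none of the 6 fits that left out a sample. ATF3, a stress-induced repressor, was below the filter at 0.240, 0.184 and 0.163 FPKM in NS control and 0.140, 0.276 and 0.253 FPKM in BCL9 KD samples. ATF3 had 10 to 30 reads per sample, and its groups overlapped (two-sided exact permutation p = 0.7). Both genes lay at the bottom of the family together with FOSB.

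**Figure D3:**
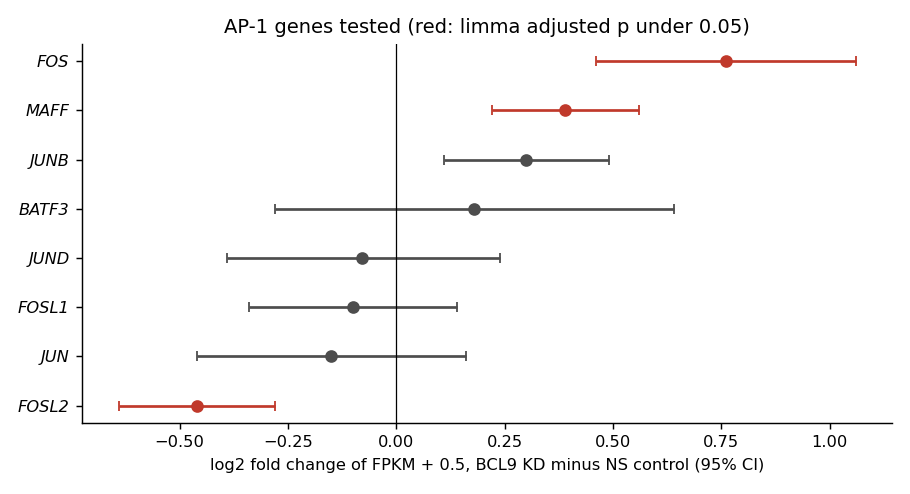
Log2 fold change of FPKM + 0.5, BCL9 KD minus NS control, with its 95% confidence interval, for the 8 AP-1 genes tested. FOS and MAFF (red) lie above 0 and FOSL2 (red) below it at a limma adjusted p-value under 0.05, and the interval of JUNB (grey) is also above 0.

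In NS control cells, the order of mean FPKM was FOSL2, FOSL1, JUNB, JUND, JUN, MAFF, FOS, BATF3, FOSB and ATF3. The sample ranges of FOSL1 and JUNB overlapped, as did those of JUNB and JUND. Within samples, JUNB FPKM divided by JUND FPKM was 1.08, 1.32 and 1.20 in NS control. FOSL1 was above JUNB in NS control replicates 1 and 2 and below it in replicate 3. These orders were not tested. The order in BCL9 KD cells had JUNB above FOSL1 and MAFF above JUN, with no overlap of the sample ranges in either pair. At the bottom, the ranges of ATF3 and FOSB overlapped. FOSL2 stood clear of every other gene of the family in both groups.

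Genes around AP-1 were described by lists that share no gene with the family. Of 83 genes listed, 69 were tested, and 13 of them (18.8%) passed the test, 5 higher and 8 lower in BCL9 KD, beside 5.87% of all genes tested, with 2.96% higher and 2.91% lower. With voom on the recovered reads, and likewise with the GC correction, 19 passed, 10 higher and 9 lower. All genes called rose as well, from 807 of 13745 to 1403 with voom and to 1607 of 13577 with the GC correction. Fewer list genes passed with no trend (7), no filter (5), the GC correction with a replicate block (3) and the block alone (0). All genes called in these fits were 332, 142, 120 and 0. Under the reported settings, the median log2 fold change over the 69 was 0.01, and 0.04 over all genes.

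Among 10 other dimer partners, 6 were tested and none passed the limma test, with a median log2 fold change of −0.10. The most abundant were the other small MAF genes, MAFG and MAFK. MAFG went from 9.09 FPKM ± 0.156 in NS control to 7.53 FPKM ± 0.489 in BCL9 KD cells (SD, n = 3 each; log2 fold change −0.26, limma adjusted p = 0.0851). MAFK was at 7.32 FPKM ± 0.144 and 7.07 FPKM ± 0.178 (SD, n = 3 each; log2 fold change −0.05, limma adjusted p = 0.677). Neither had the higher level in BCL9 KD cells that MAFF had.

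MAP kinases phosphorylate FOS and JUN proteins and the factors that switch their genes on, and are themselves phosphorylated by the MAP kinase kinases. None of the 16 tested of 17 listed passed, and the median log2 fold change was 0.01. The most abundant were MAP2K2, at 41.3 FPKM ± 5.87 in NS control and 37.2 FPKM ± 1.82 in BCL9 KD cells, and MAP2K3, at 31.7 FPKM ± 3.70 and 34.0 FPKM ± 1.34 (SD, n = 3 each). Of 7 genes that restrain JUN and FOS proteins, 6 were tested and none passed, with a median of −0.08. The 2 most abundant were DDB1, a subunit of a ubiquitin ligase, at −0.46 on the log2 scale (limma adjusted p = 0.0511), and ITCH, a ubiquitin ligase that acts on JUN, at 0.17 (limma adjusted p = 0.479). In these 3 lists with no gene called, 5 of the 28 genes tested had an unadjusted p under 0.05, beside 27.5% of all genes tested. They were MAFG and DDB1, with MAF (log2 fold change 0.38), MAP2K7 (0.33) and CUL4A (−0.24).

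SRF binds the FOS promoter with ternary complex factors such as ELK1 and, at genes of the cytoskeleton, with the MRTF coactivators. All 6 genes of this list were tested, and 2 were lower in BCL9 KD. SRF was at 35.2, 31.2 and 28.7 FPKM in NS control and at 22.0, 21.6 and 21.6 FPKM in BCL9 KD samples (log2 fold change −0.53, SE 0.0863, limma adjusted p = 0.0275). MKL1, the older symbol of MRTFA, was at 12.0, 10.5 and 9.99 FPKM in NS control and at 7.46, 7.50 and 6.87 FPKM in BCL9 KD samples (log2 fold change −0.54, SE 0.0892, limma adjusted p = 0.0287). Thus SRF and MKL1 were lower in the cells in which FOS was higher. The other 4 did not pass, and the median of the list was −0.03.

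Other immediate-early genes did not move one way. Of 21 tested of 23 listed, 2 were higher, 4 were lower and 15 did not pass, with a median log2 fold change of 0.12. The higher ones were SGK1, a kinase induced by serum, at 5.01 FPKM ± 0.0437 in NS control and 8.35 FPKM ± 0.280 in BCL9 KD cells (SD, n = 3 each; log2 fold change 0.68, limma adjusted p = 0.00942), and the zinc finger gene EGR3, at 8.46 FPKM ± 0.295 and 13.2 FPKM ± 0.544 (SD, n = 3 each; log2 fold change 0.61, limma adjusted p = 0.0117). KLF2, a Krüppel-like factor, had the largest fall of the list, from 2.41 FPKM ± 0.316 to 1.17 FPKM ± 0.332 (SD, n = 3 each; log2 fold change −0.82, limma adjusted p = 0.0473). CTGF, a matricellular gene driven by YAP and by SRF, fell from 39.9 FPKM ± 1.75 to 25.1 FPKM ± 2.00 (SD, n = 3 each; log2 fold change −0.66, limma adjusted p = 0.0136). CSRNP1 was also lower, at −0.56 on the log2 scale (limma adjusted p = 0.0468), as was CYR61, the relative of CTGF, at −0.53 (limma adjusted p = 0.029). EGR1, the immediate-early gene most often read beside FOS, had 51.2 FPKM ± 4.84 in NS control and 55.1 FPKM ± 2.02 in BCL9 KD cells (SD, n = 3 each) and did not pass (log2 fold change 0.11, limma adjusted p = 0.432).

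Textbook AP-1 target genes also went both ways. Of 14 tested of 20 listed, 3 were higher, 2 were lower and 9 did not pass, and the median log2 fold change was 0.27. HBEGF, an EGF receptor ligand, was at 13.6, 12.3 and 12.2 FPKM in NS control and at 22.8, 25.7 and 25.2 FPKM in BCL9 KD samples (log2 fold change 0.92, SE 0.0803, limma adjusted p = 0.00729). CXCL8, a neutrophil-attracting chemokine, was higher by 1.17 on the log2 scale (limma adjusted p = 0.00392), and LIF, an IL-6 family cytokine, by 0.39 (limma adjusted p = 0.0291). IVL, the cornified envelope gene involucrin, was at 1.66, 2.07 and 2.04 FPKM in NS control and at 1.05, 0.948 and 0.919 FPKM in BCL9 KD samples (log2 fold change −0.71, SE 0.124, limma adjusted p = 0.0308). The fifth gene called, CCND1, which encodes cyclin D1, was at −0.53 on the log2 scale (limma adjusted p = 0.0301). AP-1 occupancy of these genes was not measured here.

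**Figure D4:**
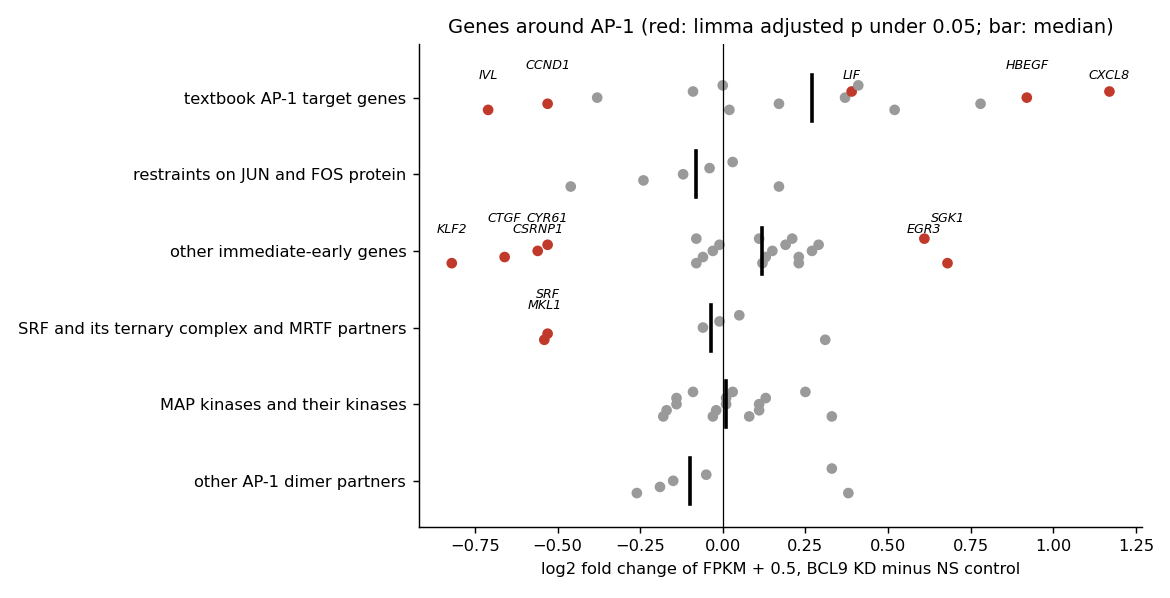
Log2 fold change of FPKM + 0.5, BCL9 KD minus NS control, for the 69 tested genes of 6 lists around AP-1. Each point is a gene, red and named where the limma adjusted p-value was under 0.05, and the black bar is the median of the list. The called genes lie on both sides of 0 among immediate-early and target genes, and SRF and MKL1 lie together below 0.

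The target of the shRNA, BCL9, was at 6.25, 6.24 and 5.34 FPKM in NS control and at 2.86, 2.78 and 2.59 FPKM in BCL9 KD samples (log2 fold change −0.99, limma adjusted p = 0.00773). All 9 markers of basal mammary epithelium were at a mean of at least 0.5 FPKM, with a summed level of 1570 to 1800 FPKM in NS control and 1630 to 1650 FPKM in BCL9 KD samples, and 5 of 7 luminal markers were, with 435 to 552 and 396 to 414 FPKM. Of the markers of other cell types, 1 of 8 for fibroblasts (0.71 to 0.737 and 0.768 to 0.905 FPKM in all), 1 of 6 for leukocytes (0.46 to 0.661 and 0.938 to 1.53 FPKM) and 1 of 4 for endothelium (1.80 to 2.42 and 3.22 to 4.06 FPKM) reached 0.5 FPKM. COL3A1 was listed at 0 in all samples, and PECAM1, the endothelial marker above 0.5 FPKM, was higher in BCL9 KD. The part of these markers in the results above was not tested. Depth was 15222452 to 22712638 reads in NS control and 15665714 to 26949026 reads in BCL9 KD samples.

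NS control replicate 1 stood apart in base composition. Its median log2 deviation was 0.606 higher in the 10% of genes richest in GC than in the 10% poorest in GC, where the other 5 samples had differences of −0.235 to 0.068. Without it, the log2 fold change was 0.80 for FOS (limma adjusted p = 0.0386), −0.43 for FOSL2 (limma adjusted p = 0.0404) and 0.43 for MAFF (limma adjusted p = 0.0252), and JUNB then passed as well at 0.35 (limma adjusted p = 0.0498). After a GC correction of all samples JUNB also passed, at 0.30 (limma adjusted p = 0.0345). Its log2 fold change was 0.30 without the correction too, and all genes called rose from 807 to 1607 with it. The calls were less steady than the sizes. Leaving out 1 sample at a time kept FOS between 0.64 and 0.85, FOSL2 between −0.52 and −0.43 and MAFF between 0.36 and 0.43, but FOS and MAFF each passed in 2 of these 6 fits and FOSL2 in 3. No AP-1 gene passed limma without NS control replicate 2, BCL9 KD replicate 2 or BCL9 KD replicate 3, with 4 of the 8 tested at an unadjusted p under 0.05 in each of these fits, beside 19.1%, 17.5% and 17.0% of all genes. Without BCL9 KD replicate 1 only FOSL2 passed. Of the 13 list genes called, CXCL8 passed in 5 of the 6 fits, KLF2 in 1 and CSRNP1 in 0, and the other 10 in 3 each. Without NS control replicate 2 or BCL9 KD replicate 2, 1 list gene passed limma, and without BCL9 KD replicate 3 none did, with 22, 22 and 20 of the 69 at an unadjusted p under 0.05, beside the same shares of all genes.

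**Figure D5:**
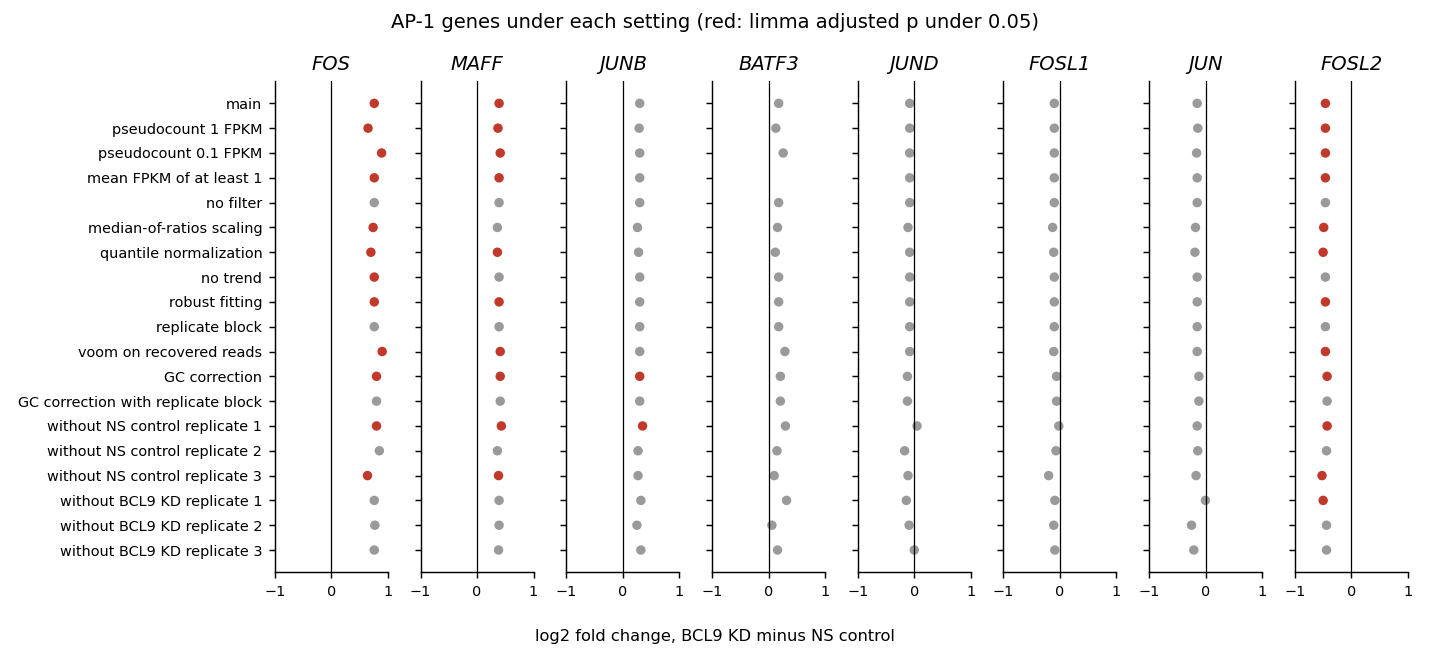
Log2 fold change, BCL9 KD minus NS control, of the 8 AP-1 genes tested under the reported settings (top) and each alternative, with a panel per gene. Red points have a limma adjusted p-value under 0.05. FOS, MAFF and JUNB stay above 0 and FOSL2 below 0 in every row, while whether a point is red varies between rows.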

How the data were processed

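RNA from 3 NS control and 3 BCL9 KD flasks was sequenced, by the labels, which give 3 replicates a group where the methods describe fewer for the differential expression test. Per the labels and the methods, the authors used STAR to align read pairs (build hg38 in the submitters' processing notes) and HTSeq 0.6.1 to count them per gene, and from count and gene length made the deposited FPKM. The deposited table also holds gene lengths, in other units. The authors tested counts with DESeq2, but with FPKM deposited limma was used here. Gene positions overlapped GRCh38.p14 RefSeq for 17961 of 17962 protein-coding genes compared (99.99%).

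BCL9 KD was compared with NS control on log2(FPKM + 0.5) with limma (empirical Bayes, mean-variance trend, no block) over genes with a mean of at least 0.5 FPKM, so fold changes of low genes are understated. Single genes were also compared by a two-sided exact permutation test. The product of FPKM and gene length was a whole number of steps, within 0.1, for 100% of values, which gave reads and depth. Without molecular identifiers these reads are not separate molecules, and counting error is a lower limit. Replicates of a group had correlations of 0.9641 to 0.987. Fits ran in limma 3.58.1 under R 4.3.3, and permutation tests in scipy 1.17.1 under Python 3.11, with pandas 2.3.3 and numpy 2.4.6 for tables and matplotlib 3.10.9 for plots. Exon counts and transcript GC came from GENCODE 44 on GRCh37, and GC was known for 98.8% of genes tested. The fit was tested on simulated data.

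The family and the lists were chosen with earlier results of these data known. All 10 family genes are named, with BCL9, genes that overlap them, and from each list up to 3 called genes each way or, where none passed, the 2 of highest mean FPKM. CYR61, EGR1, MAF, MAP2K7 and CUL4A and the markers named are outside this rule and were picked with their values in view. Alternatives were a pseudocount of 1 or 0.1 FPKM, a minimum mean of 1 FPKM or no filter, median-of-ratios or quantile scaling, robust fitting, no trend, a replicate block, a loess correction for GC (span 0.3) with and without the block, voom on recovered reads and leaving out each sample. No sample was left out.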

Additional observations from a re-analysis of the deposited data

How the results depend on the processing

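The direction of the log2 fold changes of FOS, FOSL2, MAFF, JUNB, FOSL1, JUN and BATF3 was the same under every alternative in which each could be fitted (BATF3 fell below a minimum mean of 1 FPKM), and only JUND changed sign. The number of AP-1 genes called was 0 with no filter, 1 with no trend, 0 with the replicate block and 0 with the GC correction and the block, with 4 at an unadjusted limma p under 0.05 in each, beside 14.3%, 26.5%, 23.5% and 27.0% of all genes, and 0 to 4 leaving out 1 sample. For FOS the adjusted p was 0.0843 with no filter (log2 fold change 0.76), 0.0878 with the replicate block (0.76) and 0.0516 with the GC correction and the block (0.80). For FOSL2 it was 0.0727 with no filter, 0.0542 with no trend and 0.087 with the block, all at −0.46, and 0.0609 with the GC correction and the block (−0.43). For MAFF it was 0.0661 with no filter, 0.0551 with no trend and 0.107 with the block, all at 0.39, 0.0578 with median-of-ratios scaling (0.36) and 0.0571 with the GC correction and the block (0.41). JUNB passed with the GC correction (0.30). Voom called FOS (0.90, adjusted p = 0.0145), FOSL2 (−0.46, adjusted p = 0.0158) and MAFF (0.41, adjusted p = 0.0235). Leaving out 1 sample gave 0.64 to 0.85 for FOS, −0.52 to −0.43 for FOSL2, 0.36 to 0.43 for MAFF, 0.25 to 0.35 for JUNB, −0.17 to 0.05 for JUND, −0.25 to −0.00453 for JUN and −1.06 to −0.95 for BCL9. BCL9 passed in 3 of these 6 fits, with an adjusted p of 0.0636 without NS control replicate 2, 0.06 without BCL9 KD replicate 2 and 0.07 without BCL9 KD replicate 3. JUND was 0.05 without NS control replicate 1 and 0.000475 without BCL9 KD replicate 3. With no filter, FOSB had −0.19 (adjusted p = 0.556) and ATF3 0.05 (adjusted p = 0.84). Genes called of all those tested were 142 with no filter, 332 with no trend, 1403 with voom, 1607 with the GC correction, 120 with the GC correction and the block, 0 with the block (3235 at an unadjusted p under 0.05) and 5 to 1712 leaving out 1 sample. Genes called of the lists were 19 with voom and with the GC correction, and 5, 7, 3 and 0 with no filter, no trend, the GC correction with the block and the block alone (23 of 69 at an unadjusted p under 0.05, beside 23.5% of all genes), and 0 to 13 leaving out 1 sample. The cause of these shifts was not tested.

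The replicate numbers that both groups carry were checked for pairing. The mean correlation of deviations from the group means was −0.0795 for same-numbered samples, so the numbers were not taken to pair the samples. For others it was 0.0387, which is no separate check. Deviations within a group sum to 0, so this value nearly follows from the first. With the replicate block BCL9 had −0.99 (adjusted p = 0.0656). FOSB, ATF3 and BATF3 had the fewest reads of the family, and the part of depth in their results was not tested.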
